A study of Homo sapiens with 24 samples.

Results

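Small nucleolar RNAs (snoRNAs) and small Cajal body RNAs (scaRNAs) were followed in HAP1 cells given a DNA-damaging drug or a treatment taken to be an inducer of oxidative stress. The members were all annotated genes whose symbol starts with SNORD, SNORA or SCARNA followed by a number. Of 238 such genes, 158 had at least 2 of 24 arrays at or above 2.42, the median of all values on the log2 scale, and these 158 were tested among 17338 genes. They comprised 81 of 157 box C/D RNAs (SNORD), 57 of 61 box H/ACA RNAs (SNORA) and 20 of 20 Cajal body RNAs (SCARNA). The tested members were thus selected on their measured levels, and the 80 below the filter have no test.

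HAP1 is a near-haploid line derived from the KBM-7 line of chronic myelogenous leukemia. The parental line (PAR) was compared with S51A, whose label refers to the phosphorylated serine of eIF2-alpha (a translation initiation factor), and with lines lacking 1 eIF2-alpha kinase each, labelled HRI, GCN2, PKR and PERK. All were bought from a supplier, and the labels do not give the number of clones. The untreated group had 9 arrays. Lomustine, a chemotherapy drug that alkylates and crosslinks DNA, was given at 200 µM for 2 h (9 arrays), and the treatment titled SA100 for 2 h (6 arrays). For the latter the title was followed and taken to mean sodium arsenite, an inducer of oxidative stress, which the protocol gives at 100 µM, although the agent field of these arrays says lomustine. PAR, S51A and HRI had arrays lettered A and B without drug and with lomustine, and all other groups had 1 array. The labels do not say whether A and B were separate cultures, so the spread between these arrays may be technical. P-values of fits within a line rest on that spread. Those of fits across lines rest on it and on differences between lines in their response to treatment.

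Box C/D RNAs guide 2′-O-methylation and box H/ACA RNAs guide pseudouridylation, mostly of ribosomal RNA, while Cajal body RNAs direct the same changes in spliceosomal RNAs. A few, such as U13 (SNORD13), take part in ribosomal RNA processing or have no assigned modification target. Most human members lie in introns of host genes, often genes for ribosomal proteins or noncoding hosts such as GAS5, and are released after splicing and trimmed to their ends. Binding by a core of proteins (fibrillarin for box C/D, dyskerin for box H/ACA) protects them. Mature forms have no poly(A) tail and are usually long-lived. A probe set on the array can detect the mature RNA, its precursor or the host intron, and these cannot be told apart here. Fewer cells and less RNA per cell cannot be told apart either.

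The start-site windows of 5 noncoding host genes are shown because each holds a member that was lower after treatment. Host genes of snoRNAs often start in a run of pyrimidines, the mark of genes whose mRNAs are translated under growth control. The windows are RefSeq sequence of GRCh38.p14, with 50 bases before the start and 40 from it, 5′ to 3′ on the gene's strand. Capitals mark the first tract of a C followed by bases that are each C or T, 5 bases or longer in all, that begins from 10 bases before to 20 after the start on that strand.
ZFAS1 (holds SNORD12C), chr20:49278592-49278681, + strand: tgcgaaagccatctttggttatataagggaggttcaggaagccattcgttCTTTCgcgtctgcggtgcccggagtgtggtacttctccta
GAS5 (holds SNORD75), chr1:173869006-173869095, - strand: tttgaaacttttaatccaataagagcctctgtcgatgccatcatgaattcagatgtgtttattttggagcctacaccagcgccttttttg
DANCR (holds SNORA26), chr4:52712344-52712433, + strand: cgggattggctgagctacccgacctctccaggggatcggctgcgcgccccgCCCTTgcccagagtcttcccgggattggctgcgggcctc
SNHG16 (holds SNORD1B), chr17:76557714-76557803, + strand: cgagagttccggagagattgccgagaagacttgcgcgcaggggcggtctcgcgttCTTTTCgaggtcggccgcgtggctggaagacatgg
EPB41L4A-AS1 (holds SNORA13, with EPB41L4A), chr5:112160476-112160565, + strand: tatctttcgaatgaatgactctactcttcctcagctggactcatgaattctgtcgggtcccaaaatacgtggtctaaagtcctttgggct
ZFAS1, DANCR and SNHG16 hold such a tract at their start, and the windows of GAS5 and EPB41L4A-AS1 show none in that stretch. Each window uses 1 annotated start per gene, which may not be the start in use in these cells. A window without a tract therefore does not show that the gene lacks one. Over all 27305 RefSeq gene starts, 38.2% hold one. Of the 81 genes that hold a tested member and have a window, 43 do (53.1%), and of the 12 that hold a member lower after treatment, 6 do. These shares are a description of the windows.

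Arrays stood apart in ways that touch every result. On S51A with lomustine B, 8.72% of probe sets lay over 1 log2 unit from the median of the other arrays, and on PAR with lomustine A 3.38% did. Members separated these repetitions more than other genes did. In PAR with lomustine, 128 of 158 members were higher on B than on A, and 46.2% of members differed by over 1 log2 unit against 7.78% of all genes tested. In S51A with lomustine, 71.5% of members were lower on B, and so were 63.6% of all genes, a share not far from that of the members. In this group 41.8% of members differed by over 1 log2 unit against 18.1% of all genes. In HRI with lomustine these shares were 6.96% and 4.04%. The part of the arrays standing apart in the results was not tested beyond the fits without them, given beside each count. Transcripts of the kinase genes did not separate the lines: EIF2AK1 (HRI) read 7.49 to 7.84 in the HRI line and 6.92 to 7.96 in the others, and the other 3 kinases overlapped in the same way. Probe sets outside an edited stretch would not show the edit, so this checks nothing. Of 7 blood markers, 6 were tested, with mean levels of 1.76 to 3.85 over the list, near the median of all values.

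The class medians on each array show this spread. Among the 9 untreated arrays the median over the 57 box H/ACA members ran from 4.26 to 5.16, and among the 9 lomustine arrays from 3.84 to 5.50. The lomustine range was set by PAR, at 4.18 on A and 5.50 on B, and by PERK at 3.84. S51A with lomustine read 5.31 on A and 4.03 on B. Box C/D medians in PAR with lomustine were 3.62 on A and 4.64 on B, and Cajal body medians 4.23 and 5.33. The medians of all genes tested stayed between 3.55 and 3.80 over the 24 arrays. SA100 arrays varied less, with box H/ACA medians of 4.19 to 4.74, and the highest was the PKR array. For single members, the median residual SD in the fit was 0.416 log2 units, against 0.250 over all genes.

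**Figure D1:**
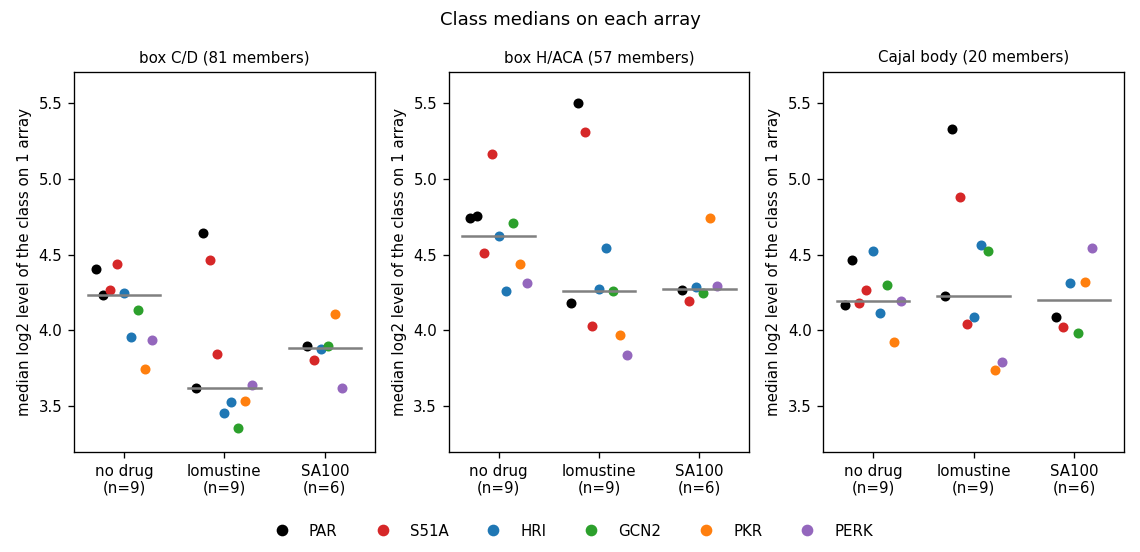
Median log2 level over the members of each class on every array (y axis), by treatment (x axis) and line (colour); each point is 1 array and the grey bar is the median of the arrays. The lomustine arrays spread most, with box H/ACA medians of 3.84 to 5.50, and the PAR and S51A repetitions lie far apart.

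Signals of the members spanned most of the array's range, with means over 24 arrays from 1.56 to 10.43. Probes differ in brightness, so an order of signals between probe sets is not an order of RNA amounts. The highest mean signals among box C/D members were those of SNORD46 (mean 10.43), SNORD15B (9.59), within RPS3, and SNORD105B (9.49), within PPAN. For box H/ACA they were SNORA23 (9.95), within IPO7, SNORA68 (9.70), and SNORA24 (8.87), within the noncoding host SNHG8. For Cajal body RNAs they were SCARNA22 (7.56), SCARNA17 (7.51) and SCARNA4 (7.37). SNORD46, SNORA68 and SNORA24 also varied little between untreated arrays, with SDs of 0.107, 0.112 and 0.126 (n = 9 each).

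Most members without a test were box C/D RNAs (76 of 80), and the imprinted clusters supplied many of them. Of 40 members of the chromosome 14q32 cluster (SNORD112, SNORD113 and SNORD114 families) 11 passed, and of 43 of the 15q11 cluster (SNORD115 and SNORD116) 3 did. Copies in these families are near-identical, so their probe sets may detect each other. At the edge of the filter, the second-highest value was 2.42 for SNORD113-7 and 2.44 for SNORD116-11, just inside, and 2.37 for SNORD114-2 and 2.30 for SNORD114-26, just outside. Among box H/ACA members it was 2.45 for SNORA36C and 2.54 for SNORA58 inside, and 2.16 for SNORA31 and 2.14 for SNORA11C outside. Of the 158 that passed, 10 did so through arrays of 1 treatment alone (7 through lomustine, 3 through no drug), and 1 of these, SNORD19, was called in a test below. Of the 158, 29 had a mean under 2.42, where a signal was not told from background. In 174 probe sets a member symbol stood beside other symbols, and these were left out. This holds for SNORD3A, SNORA73A, SCARNA13 and the members in RPL13A. SNORD118, SNORA73B and the members in SNHG1 are not analysed here either.

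The first comparison asked which members lomustine changed across the 6 lines. In limma, 10 of 158 members were lower and 0 higher (adjusted p under 0.05), whereas 0.779% of all genes tested were lower and 0.248% higher. At an unadjusted p under 0.05 there were 34 members, where 14.2% of all genes had such a p. The lower members were 7 box C/D and 3 box H/ACA RNAs, and 0 of 20 Cajal body RNAs passed, with 3 at an unadjusted p under 0.05 and a smallest adjusted p of 0.095. Of all genes tested 1.03% passed in either direction, so 0 of 20 is no result about Cajal body RNAs. Over all 238 members without the filter, 9 were lower and 0 higher. Without PAR lomustine A and S51A lomustine B, 7 were lower and 1 higher. The share of all genes called in that fit is not given here, so this change of count is no result about the members. For the members, the lomustine arrays with the highest class medians were PAR B and S51A A, which stay in that fit. Without PAR lomustine B 11 were lower, without S51A lomustine A 10, and without PAR lomustine A 6.

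SNORD75, a guide of large-subunit ribosomal RNA methylation encoded in GAS5, changed most. Its levels ran from 3.74 to 5.96 on untreated arrays (median 4.95) and from 2.12 to 3.73 with lomustine (median 2.43). Every lomustine array lay below every untreated array, the closest being PAR with lomustine B at 3.73 and PKR without drug at 3.74. The change was -2.28 (SE 0.224, adjusted p = 3.59e-06), 4.87-fold lower, and lower in 6 of 6 lines. It passed in all 28 alternative fits, with changes of -2.44 to -2.12.

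SNORD12C, encoded in ZFAS1, read 5.04 to 6.37 without drug (median 5.94) and 2.37 to 5.60 with lomustine (median 3.64). The groups overlapped only through PAR with lomustine B (5.60) and S51A with lomustine A (5.22), which stood above the PERK (5.04) and PKR (5.08) untreated arrays. The change was -1.95 (SE 0.327, adjusted p = 0.00298), 3.86-fold lower.

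SNORD35B ran from 3.80 to 5.35 without drug and from 2.49 to 4.18 with lomustine, with medians of 4.43 and 3.17. Its change was -1.30 (SE 0.217, adjusted p = 0.00292). SNORD4B, encoded in RPL23A, ran from 5.44 to 6.56 and from 3.34 to 5.96 (medians 5.90 and 4.27), a change of -1.49 (SE 0.282, adjusted p = 0.00956). Both were lower in 6 of 6 lines, and both groups overlapped through the PAR and S51A lomustine arrays that read high. SNORD42A, another box C/D member within RPL23A, had changes of 0.04 with lomustine and 0.01 with SA100, which did not pass.

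SNORD72, encoded in RPL37, had medians of 3.31 without drug (range 2.44 to 5.18) and 1.64 with lomustine (1.30 to 3.27), a change of -1.49 (SE 0.33, adjusted p = 0.029). Its lomustine mean of 2.04 was under 2.42, where a signal was not told from background. SNORA3B, within RPL27A, had medians of 6.15 (5.74 to 6.46) and 5.00 (3.41 to 6.0), a change of -1.23 (SE 0.281, adjusted p = 0.0352). SNORD51, within EEF1B2, had medians of 6.76 and 5.60 and a change of -0.92 (SE 0.193). Its response by line ran from -1.75 in GCN2 to -0.01 in S51A. The other lower members were SNORD13P2 (-0.61), a copy of U13, SNORA55 (-0.54) and SNORA13 (-0.47). The fit without PAR lomustine A and S51A lomustine B keeps PAR B and S51A A, the lomustine arrays with the highest class medians. In that limma fit the calls of SNORD72 (adjusted p = 0.0919), SNORA3B (0.0918), SNORA55 (0.0645) and SNORD13P2 (0.0692) were lost. The same 4 were also lost without single arrays: SNORD72 and SNORA3B passed in 15 and 12 of 28 alternatives, SNORA55 in 15 and SNORD13P2 in 10. SNORA13 passed in 17 of 28, and was lost without PAR none A, PAR none B or S51A none A.

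**Figure D2:**
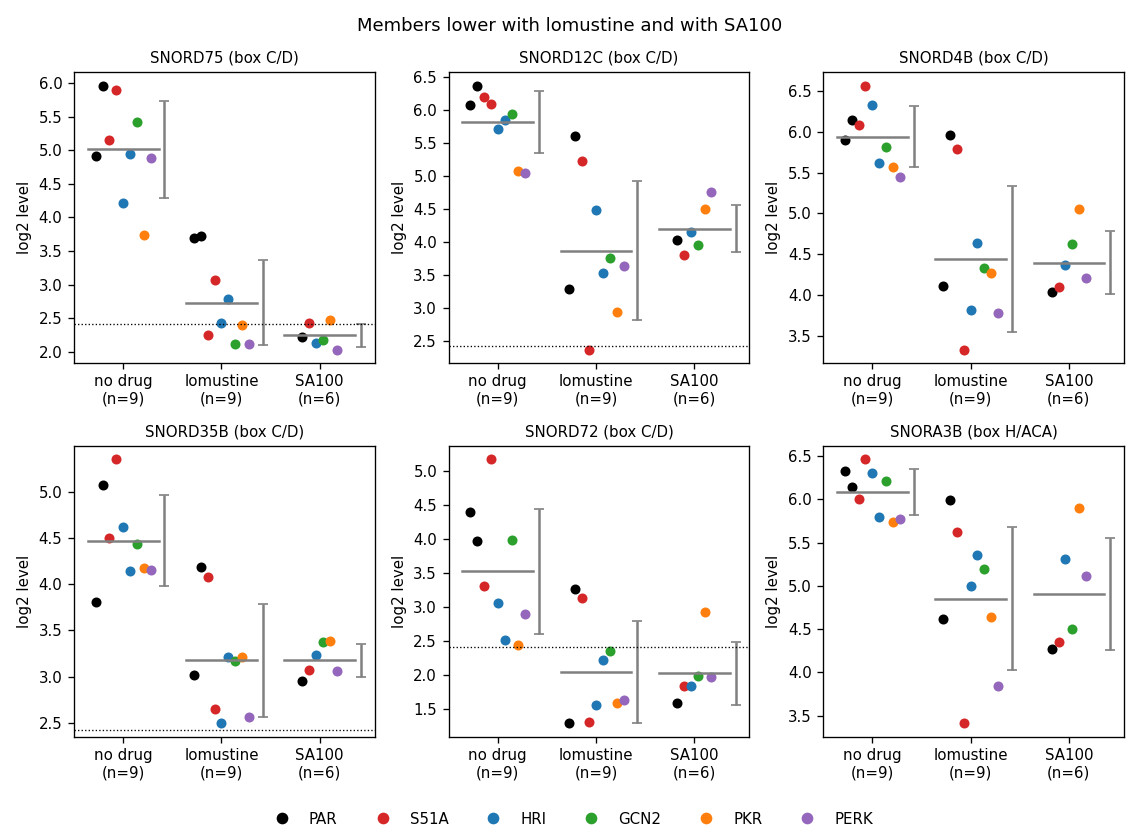
Log2 level (y axis) of 6 members on every array, by treatment (x axis) and line (colour); grey bars are means, error bars are SD over arrays, and the dotted line is the median of all values, 2.42. SNORD75 is the member whose lomustine arrays (2.12 to 3.73) all lie below its untreated arrays (3.74 to 5.96).

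The class medians stayed near 0. The median change with lomustine was -0.03 for box C/D, -0.04 for box H/ACA and 0.08 for Cajal body members, beside -0.04 for all genes tested. The sign of these medians moved with the setting: box H/ACA read 0.06 without PAR lomustine A and S51A lomustine B, and box C/D 0.03 after a further quantile normalization. Of 158 members, 24 were lower in 6 of 6 lines (15.2%, against 8.71% of all genes), and 85 had a change below 0 (53.8%, against 60.9%).

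With SA100, 19 of 158 members were lower and 4 higher in limma, whereas 0.952% of all genes tested were lower and 2.11% higher. The 19 include SNORD19, which passed the filter only through untreated arrays, the group where it is higher. Its call is thus not independent of the filter. The lower members were 12 box C/D and 7 box H/ACA RNAs, and the higher ones 1 box C/D, 2 box H/ACA and 1 Cajal body RNA. For 12 members every SA100 array lay below every untreated array, 7.59% of members against 0.433% of all genes. Of these, SNORA75 did not pass the limma test (adjusted p = 0.0804). The 12 also include SNORD19, whose separation is likewise not independent of the filter. SNORD93 is among them too, and all its SA100 arrays read under 2.42, where a signal was not told from background. Over all 238 members without the filter, 17 were lower and 4 higher. Without PAR lomustine A and S51A lomustine B, which enter through the shared line terms and spread, 24 were lower and 6 higher. That fit's share over all genes is not given here either, so the rise is no result about the members. Both treatments were compared with the same 9 untreated arrays.

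SNORD75 again changed most. Its 6 SA100 arrays ran from 2.03 to 2.47 (median 2.20), all below the lowest untreated array at 3.74. The change was -2.69 (SE 0.252, adjusted p = 4.45e-07), with an SA100 mean of 2.24, under 2.42. SNORD78, a second box C/D member within GAS5, read 8.98 to 9.73 without drug, 8.88 to 10.10 with lomustine and 8.78 to 9.13 with SA100. Its changes of -0.02 and -0.37 did not pass (adjusted p = 0.952 and 0.15). These are the only 2 members in GAS5 with a probe set of their own, of 10 listed. The difference SNORD75 minus SNORD78, averaged over lines, changed by -2.28 with lomustine (SD over lines 0.847) and by -2.32 with SA100 (SD 0.690), below 0 in 6 of 6 lines each. An exact permutation of treatments within lines, two-sided, gave p = 0.00116 and 0.00463, the smallest each design allows (0.00463 and 0.00673 adjusted over 16 such tests). This pair was chosen after its values were seen.

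SNORD41, a guide of large-subunit ribosomal RNA methylation encoded in TNPO2, was lower with SA100 and not with lomustine. Levels were 7.72 to 9.54 without drug (median 9.15), 8.80 to 9.74 with lomustine (median 9.21) and 7.03 to 8.31 with SA100 (median 7.65). All SA100 arrays lay below all lomustine arrays, and they overlapped the untreated group through PAR without drug A (7.72) and S51A without drug A (8.22). The change was -1.31 against no drug (SE 0.23, adjusted p = 0.00183) and -1.66 against lomustine (SE 0.23, adjusted p = 0.000185). It was lower in 6 of 6 lines in both, and against lomustine it passed in all 28 alternatives. With lomustine the change against no drug was 0.35 (adjusted p = 0.452).

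SNORD12C (-1.56, SE 0.369), SNORD4B (-1.50, SE 0.318), SNORD72 (-1.47, SE 0.372) and SNORD35B (-1.27, SE 0.245) were also lower with SA100. SNORD12C ran from 3.81 to 4.75 and SNORD35B from 2.95 to 3.39, all below their untreated arrays. SNORD4B read 4.04 to 5.05, also without overlap. SNORD72 overlapped, through the PKR array at 2.93, and its mean of 2.03 was under 2.42. By line, the change of SNORD12C ran from -2.33 in S51A to -0.29 in PERK, and that of SNORD72 from -2.60 in PAR to 0.50 in PKR, single arrays whose difference between lines was not tested.

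Several box H/ACA members fell with SA100 by less than 1 log2 unit but with small errors. SNORA65, within RPL12, read 8.10 to 8.87 without drug (median 8.38), 7.90 to 8.60 with lomustine (8.20) and 7.42 to 7.80 with SA100 (7.50). Its SA100 arrays lay below those of both other groups. It changed by -0.87 against no drug (SE 0.118, adjusted p = 9.07e-05) and by -0.66 against lomustine (SE 0.118, adjusted p = 0.0023).

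SNORA57 read 8.49 to 9.16 without drug and 7.98 to 8.37 with SA100, a change of -0.77 (SE 0.13, adjusted p = 0.00116). The 6 lines gave -0.64 to -0.51 against lomustine, close to each other. SNORA13, a guide of small-subunit ribosomal RNA pseudouridylation, read 6.90 to 7.52, 6.22 to 7.16 and 6.24 to 6.68 in the 3 groups. It changed by -0.81 with SA100 (SE 0.118, adjusted p = 0.000216), without overlap, beside -0.47 with lomustine (adjusted p = 0.029), with overlap. With SA100 against no drug, SNORA65, SNORA57 and SNORA13 passed in all 28 alternatives.

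SNORA26 (-1.23), SNORA3B (-1.16) and SNORA2B (-1.14) changed more but with larger errors (SE 0.334, 0.317 and 0.275), each lower in 5 of 6 lines. SNORA26 and SNORA3B passed in 10 and 11 of 28 alternatives and SNORA2B in 23. The remaining lower members changed by -0.84 (SNORD1B) to -0.44 (SNORD88B). Among them SNORD19 and SNORD93 had untreated means of 2.10 and 2.04, under 2.42, so no fold is given. SNORD19 entered the tests only through 3 untreated arrays. SNORD3C (-0.57), a U3 copy, shares nearly all its sequence with other U3 genes, so its probe set may detect them. Without PAR none B, the calls of SNORD72, SNORA26, SNORA3B, SNORD19, SNORD93, SNORD3C and SNORD88B were lost.

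The 4 higher members were SNORA70G (0.92, SE 0.213, adjusted p = 0.0193), SNORA74B (0.75, SE 0.164, adjusted p = 0.0135), SNORD8 (0.68, SE 0.159, adjusted p = 0.0216) and SCARNA17 (0.57, SE 0.121, adjusted p = 0.0111). In that order they passed in 23, 24, 23 and 25 of 28 alternatives. By line, the change of SNORA74B ran from -0.03 in PAR to 1.31 in PERK. SNORA70G read 2.37 to 3.43 without drug and 3.53 to 4.02 with SA100, without overlap. SCARNA17 read 6.91 to 7.68 and 7.44 to 8.03, and was higher in 6 of 6 lines, as was SNORD8. With lomustine these 2 had changes of 0.38 and 0.37, higher in 6 of 6 lines without passing (adjusted p = 0.0947 and 0.224).

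The median change with SA100 was -0.12 for box C/D, -0.12 for box H/ACA and 0.02 for Cajal body members, beside 0.04 for all genes tested. In PKR all 3 class medians were above 0 (0.13, 0.13 and 0.31), and in PAR, S51A, HRI and GCN2 all were below 0, single SA100 arrays in each case.

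**Figure D3:**
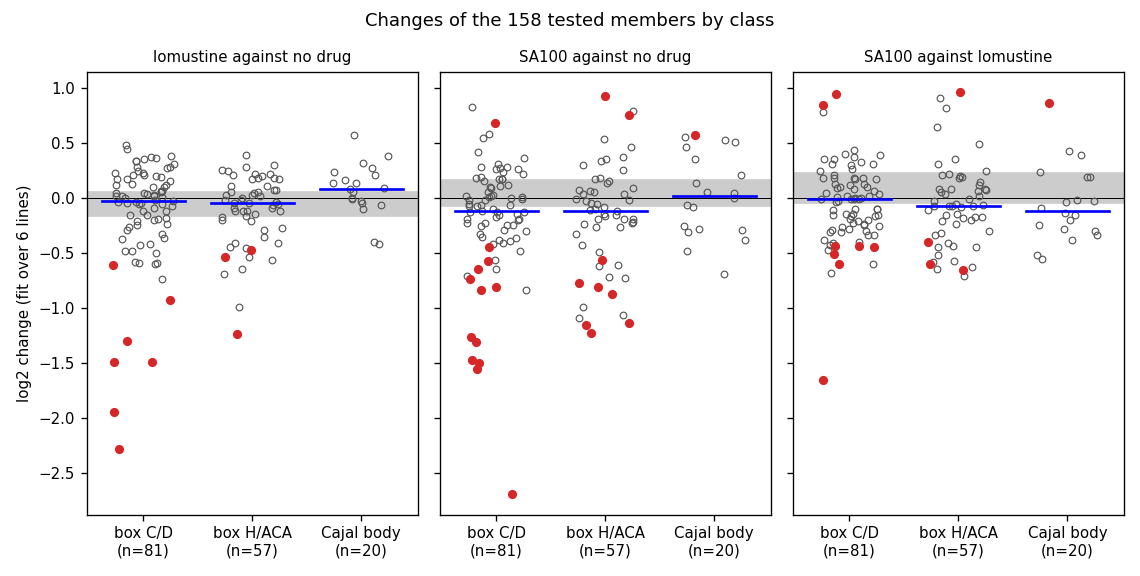
Log2 change (y axis) of each tested member by class (x axis) in the 3 treatment comparisons; red points passed limma's adjusted p of 0.05, open points did not, blue bars are class medians and the grey band holds the middle quartiles of all genes tested. Red points lie mostly below 0, while class medians stay between -0.12 and 0.08.

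Set directly against lomustine, SA100 gave 9 lower and 4 higher members, whereas 0.473% of all genes tested were lower and 5.47% higher. Without PAR lomustine A and S51A lomustine B there were 21 lower and 8 higher. Again the share of all genes called in that fit is not given, so the rise is no result about the members. After SNORD41 and SNORA65, the lower members of largest change were SNORD13P3 (-0.60), SNORA57 (-0.60), SNORD3C (-0.51) and SNORD13 (-0.45). SNORD13, the U13 RNA, is transcribed from its own gene and read 9.20 to 9.91 with lomustine and 8.97 to 9.55 with SA100 (SE 0.104, adjusted p = 0.0136). Neither treatment passed against no drug for SNORD13, at 0.20 and -0.25.

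The 4 higher members were SNORA74B (0.96, SE 0.164, adjusted p = 0.00144), SNORD51 (0.94, SE 0.217, adjusted p = 0.0136), SCARNA2 (0.86, SE 0.235, adjusted p = 0.0326) and SNORD20 (0.84, SE 0.251, adjusted p = 0.0489). SNORA74B ran from 2.71 to 3.51 with lomustine and from 3.58 to 4.59 with SA100, without overlap. SNORD51 had medians of 6.76 without drug and 6.76 with SA100, and 5.60 with lomustine, where PAR, HRI, GCN2, PKR and PERK were low and the S51A mean was near the untreated one. SCARNA2, a Cajal body RNA with its own gene, read 4.76 to 6.25, 4.01 to 5.63 and 5.53 to 5.83 in the untreated, lomustine and SA100 groups. SNORD20 had means of 2.01 with lomustine, under 2.42, and 2.80 with SA100. Of these calls, SCARNA2 was lost without PAR lomustine A, SNORD20 and SNORD3C were each lost without PAR none A or PAR lomustine B, among others, and SNORA74B passed in all 28. Other Cajal body RNAs read lower by amounts that did not pass: SCARNA5 by -0.56 (adjusted p = 0.0807) and SCARNA10 by -0.34 (adjusted p = 0.0623), while SCARNA7 had -0.03. SNORD14E, a U14 RNA, had a change of 0.37 (SE 0.366).

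**Figure D4:**
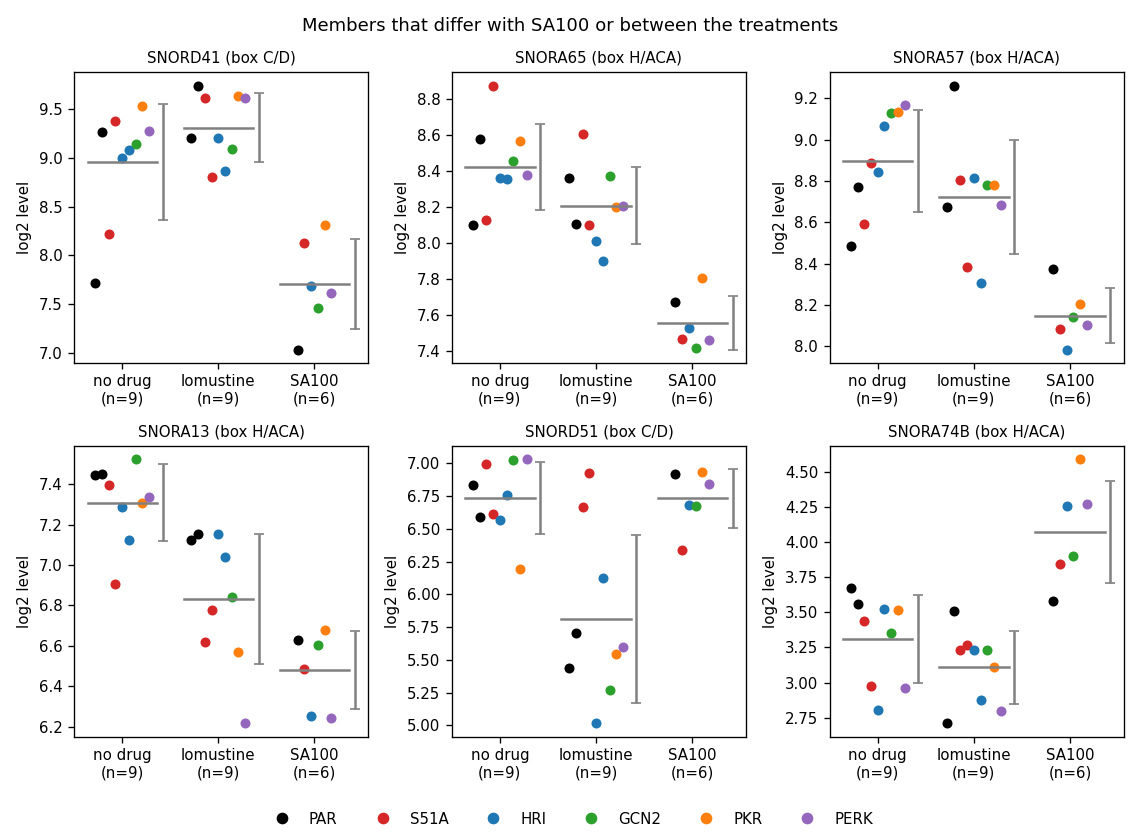
Log2 level (y axis) of 6 members on every array, by treatment (x axis) and line (colour); grey bars are means and error bars SD over arrays. SNORD41 and SNORA65 are lowest with SA100, SNORD51 is lowest with lomustine, and the SA100 arrays of SNORA74B (3.58 to 4.59) lie above its lomustine arrays (2.71 to 3.51).

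The lines were next compared with PAR. Over all treatments, 1 of 158 members differed between S51A and PAR, where 2.18% of all genes tested did. This was SNORA47, which read 4.54 to 6.87 on the 5 S51A arrays and 7.27 to 7.85 on the 5 PAR arrays. The change was -1.52 (SE 0.30, adjusted p = 0.00495), and it passed in all 19 alternatives. Without S51A lomustine B, its lowest array, the change was smallest, -1.14. ZBED3, the gene whose span holds SNORA47, had means of 3.60, 3.61 and 3.58 in the untreated, lomustine and SA100 groups. Those means pool all lines, so they do not compare ZBED3 between S51A and PAR.

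For HRI, GCN2, PKR and PERK against PAR, limma called 0 members, and 9, 5, 8 and 17 had an unadjusted p under 0.05. Of all genes tested, 0.144%, 0.0692%, 0.0% and 0.179% were called, and 7.61%, 4.08%, 3.03% and 5.64% had an unadjusted p under 0.05. At shares this low, 0 called members is no result about the members. The box C/D medians were -0.22 in HRI, -0.14 in GCN2, -0.16 in PKR and -0.26 in PERK, with 66, 57, 56 and 62 of 81 members below 0, where 56.1%, 48.9%, 51.4% and 55.2% of all genes were. The smallest adjusted p belonged to SNORA80E in HRI (-0.68, adjusted p = 0.0932) and to SNORD91B in PERK (-1.01, adjusted p = 0.303). SNORD75 had differences of -0.80 in HRI, -0.66 in GCN2, -1.03 in PKR and -0.88 in PERK, and none passed. All these comparisons share the PAR arrays. Among them PAR with lomustine B had the highest median of all 24 arrays in every class (box C/D 4.64), and its part here was not tested. Against the same PAR arrays, the S51A box C/D median was -0.004, with 42 of 81 members below 0, where 54.1% of all genes were.

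Within single lines, lomustine against no drug gave 0 called members in PAR, S51A and HRI, with 6, 8 and 7 at an unadjusted p under 0.05. Of all genes tested, 0.0%, 0.0115% and 0.0% were called in PAR, S51A and HRI, and 2.9%, 4.08% and 1.49% had an unadjusted p under 0.05. SNORD75 had changes of -1.73 in PAR, -2.86 in S51A and -1.97 in HRI (SE 0.419 each), with adjusted p = 1.0, 0.197 and 0.943. The difference of the response from that of PAR gave 0 called members for S51A and 0 for HRI, with 3 and 3 at an unadjusted p under 0.05, and 0.629% and 0.894% of all genes had such a p. Without S51A lomustine A, 15 of 158 members were called in S51A (10 lower, 5 higher), and 9.23% of all genes tested were, a share near that of the members. The lomustine group there is array B alone and is assumed to vary like other groups.

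The host genes were read beside their members, using RefSeq spans without regard to strand. Of 158 members, 134 lay in exactly 1 other gene's span, 17 in several and 7 in none, and 93 of the 134 had a tested host (75 hosts). Of the 75 hosts, 4 were lower with lomustine and 4 with SA100, and 0 and 2 were higher. Of all genes tested, 0.779% and 0.952% were lower and 0.248% and 2.11% higher. With lomustine, 4 of the 93 members and the hosts of 5 others were lower, and in 0 pairs were both. Counts this low make the number of such pairs, here and with SA100 below, no result about members and hosts. With SA100, 10 members were lower, and in 1 pair, SNORA65 and RPL12, the host was too (-0.87 and -1.13). RPL12 was also lower with lomustine in limma (-0.86, adjusted p = 0.0292), where SNORA65 (-0.21) did not pass. Members in several spans are outside these pairs. Of the genes that hold SNORA57, CSKMT was lower with lomustine (-0.87, adjusted p = 0.0176) and SA100 (-0.84, adjusted p = 0.0261). LBHD1, which also holds it, did not pass, nor did the tested genes that hold SNORA13 or SNORA55. Median changes over the 75 hosts were -0.15 with lomustine and -0.05 with SA100, beside -0.02 and -0.09 over the 93 members.

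ZFAS1 had changes of -0.10 with lomustine and 0.03 with SA100, where SNORD12C changed by -1.95 and -1.56. GAS5 had changes of -0.67 and -0.59 (adjusted p = 0.0989 and 0.163), where SNORD75 changed by -2.28 and -2.69. RPL37 had changes of -0.38 and -0.26, beside SNORD72 at -1.49 and -1.47. With SA100, TNPO2, a nuclear import receptor gene, had a change of 0.08 beside SNORD41 at -1.31. KANSL2, a gene of a histone acetyltransferase complex, had a change of 0.60 (adjusted p = 0.066) beside SNORA2B at -1.14.

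The difference between member and host was tested by exact permutation of treatments within lines, two-sided, for each lower member with a tested host. These members were taken because they fell, so the tests are not independent of that choice. A difference below 0 was thus favoured in advance, and the adjustment covers the 16 tests run, not the choice among all pairs. With lomustine, SNORD12C minus ZFAS1 (-1.92), SNORD75 minus GAS5 (-1.74) and SNORD72 minus RPL37 (-0.99) were below 0 in 6 of 6 lines, each at an exact permutation p = 0.00116, the smallest possible (0.00463 adjusted over 16 tests). SNORD13P2 minus FOXK1 was -0.35 (exact p = 0.149). With SA100, 9 of 10 differences had an adjusted p from 0.00673 to 0.037, and SNORA65 minus RPL12 was 0.23 (exact p = 0.338).

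**Figure D5:**
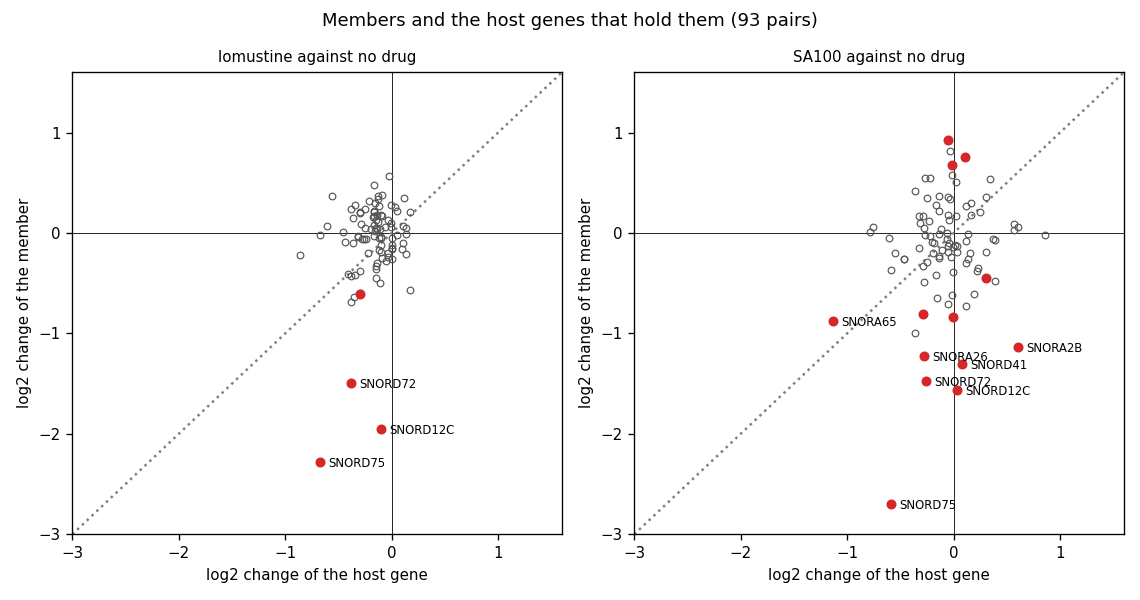
Log2 change of each member (y axis) against that of the gene whose span holds it (x axis) for 93 pairs, with lomustine (left) and SA100 (right); red points are members past limma's test and the dotted line marks equal change. Most red points lie below the line, with hosts near 0; SNORA65 lies near it.

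Genes of the proteins that bind or assemble these RNAs were read from a list of 22, of which 20 were tested, while NOP56 and DKC1 (dyskerin) are not analysed here. With lomustine 0 of 20 passed in limma, with a median of -0.15, where 1.03% of all genes did. With SA100 1 was higher and 0 lower, with a median of 0.08, where 3.06% of all genes were called. The higher one was PIH1D1 (0.44, SE 0.107, adjusted p = 0.0269), part of the assembly complex of box C/D particles. FBL, the methyltransferase fibrillarin, had changes of -0.03 and 0.06, and NOP58, a core box C/D protein, changes of 0.00 and 0.11. NHP2 and NOP10, core box H/ACA proteins, had changes of -0.02 and -0.08 with lomustine and of 0.06 and 0.08 with SA100. TGS1, which forms the trimethylated cap of U3 and related RNAs, had a change of -0.40 with lomustine (adjusted p = 0.111). COIL, the Cajal body scaffold coilin, had changes of -0.24 and 0.37, neither past the test.

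The lower members were also set beside the others by length, which the tests did not use, and by untreated level. The 12 box C/D members lower with SA100 had a median length of 79.5 bases, from 60 to 217, and the other 69 of 86 bases. For box H/ACA the medians were 136 bases for the 7 lower members and 134 for the other 50. Untreated levels of lower members were spread widely, from 2.04 to 9.07 for box C/D and from 4.87 to 8.90 for box H/ACA.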

How the data were processed

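The deposited table holds log2 values of 53617 probe sets on 24 arrays, which the authors made with RMA and the affy package per the submitters' processing notes. Versions and genome build are not given in the sources used here. Labels give TRI Reagent with column cleanup, and in vitro transcription labelling. Probe sets with exactly 1 symbol were kept, with the highest mean standing for a gene (7 members had several). The filter required 2 arrays at the median of all values. Members and lists were chosen with earlier results of these data known.

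Tests used limma 3.58.1 in R 4.3.3, two-sided, with Benjamini-Hochberg adjustment over 17338 genes and a threshold of 0.05. Terms for treatment and line (16 residual degrees of freedom) gave comparisons across lines, and a mean for each of 18 groups (6 residual degrees) those within lines. Means, SDs and n are over arrays. Arrays give no read depth, and their number limits precision. The fit was tested on simulated data. Letters did not pair arrays in the same way in each line (across genes, A minus B without drug against A minus B with lomustine had r = 0.334 for PAR, -0.388 for S51A, -0.561 for HRI).

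Named by rule were up to 6 members in each direction with the largest changes past each treatment test (up to 3 elsewhere), the 3 highest of each class, those at the filter's edge, a fixed set of members without usual modification roles, and hosts. SNORA13, SNORD42A, SNORD88B, SNORD1B, SNORA55, SNORD13P2, SNORD51 (with lomustine), SNORD19 and SNORD93 were named after their values were seen. RefSeq GRCh38.p14 gave lengths and gene spans for 234 members. Alternatives were other filters, scalings, priors, fits and arrays or lines left out.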

Additional observations from a re-analysis of the deposited data

Results flagged for a closer look

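Among 135 groups of arrays checked (45 items in 3 treatments), 5 held an array far from the others, and chance gives about 1 in 20. SCARNA22 without drug read 6.88 in S51A repetition B, with the next array at 7.26. SNORA47 with lomustine read 4.54 in S51A repetition B, with the next at 6.27. SNORD93 with lomustine read 2.52 in PAR repetition B, with the next at 1.66. SNORD72 with SA100 read 2.93 in PKR, with the next at 1.98. The median of box H/ACA members with SA100 was 4.74 in PKR, with the next at 4.30.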

How the results depend on the processing

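Counts of called members depended on which arrays entered. Shares of all genes in the same fits are not set beside these counts, so a change of count is no result about the members. For lomustine against no drug (10 members), centring arrays on their medians gave 6, averaging the contrasts of the single lines gave 1, and fits without a line gave 4 without PAR, 6 without S51A, 5 without HRI, 4 without GCN2 and 4 without PERK. Leaving out single arrays gave 5 to 11 (5 without PAR none B). For SA100 against no drug (23), fits without a line gave 15 without PAR, 11 without HRI, 10 without GCN2, 12 without PKR and 13 without PERK. Averaging single lines gave 5, and single arrays left out gave 16 to 27. For SA100 against lomustine (13), centring gave 7, only the arms compared 4, averaging single lines 3, and fits without a line 8 without HRI, 7 without GCN2, 8 without PKR and 6 without PERK. Without PAR lomustine A and S51A lomustine B it was 29, and single arrays left out gave 11 to 19. For S51A against PAR (1), a further quantile normalization gave 2 and single arrays left out 1 to 2. Within S51A (0), single arrays left out gave 0 to 15.

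With the letter as a replicate block, SA100 against no drug gave 11 members, with 15 of 23 calls lost, and lomustine within S51A 1. No other count moved by over 1.5 times, but for SA100 against lomustine the block ended 8 of 13 calls (SCARNA2, SNORA23, SNORD105B, SNORD13, SNORD13P3, SNORD20, SNORD3C and SNORD88B). Every SA100 array is from a group of 1 array and has no letter. Under the block the SA100 arrays of PAR, S51A and HRI therefore cannot be set against lettered arrays of their own line. The SA100 comparisons then rest on the SA100 arrays of GCN2, PKR and PERK. The lost calls thus do not show whether the effect over all lines is weaker. All 10 calls of lomustine against no drug were kept. Crossed letters in S51A and HRI gave 0 within lines, as did the uncrossed letters.

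For 47 calls of named members, 1304 values under alternatives included 994 past the test and 310 not, and 0 changed direction. All class medians moved by less than the spread between arrays. Fits without a line have fewer arrays. The 12 groups of 1 array have no spread of their own, and low signals limit many box C/D changes.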
